A study of Homo sapiens with 9 samples.

Results

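NOTUM and AXIN2, a pair of genes that restrain Wnt signalling, held 11 of the 4934 entries in 3 lists of m6A sites from HepG2 cells, at 7 distinct positions. HepG2 is an established human hepatocellular carcinoma line. The 3 groups were lines with a stable non-specific shRNA as control (shCtrl), with shSETD2#1 and with shSETD2#2. The last 2 carry different shRNAs that target SETD2 and are called hairpin 1 and hairpin 2 here. The shRNAs were delivered by lentivirus with puromycin selection, so every group, control included, had been infected and selected. The labels give 3 replicates per shRNA, 9 samples in all, and do not say whether these were separate cultures. One list was deposited per shRNA and assigned to its 3 replicates, so each value below is a pooled one without replicate error, and no test between conditions was made. No SETD2 level was analysed here, and the knockdown is taken from the labels. Sites were chosen by position and strand in build hg19: chromosome 17, 79910383 to 79919716, minus strand, for NOTUM (gene ID 147111), and chromosome 17, 63524683 to 63557740, minus strand, for AXIN2 (gene ID 8313). The pair was picked with the site numbers and scores of these lists known, so numbers of sites, their recurrence and their scores are given as a description.

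Wnt proteins are lipid-modified ligands that stabilise β-catenin, which then activates target genes with TCF and LEF factors. NOTUM encodes a secreted carboxylesterase that removes the lipid from Wnt proteins and so inactivates them outside the cell. AXIN2 encodes a scaffold of the cytoplasmic complex that marks β-catenin for destruction. Both genes are transcribed in response to β-catenin and feed back on the pathway, and HepG2 cells carry a CTNNB1 deletion that stabilises β-catenin. SETD2 is the methyltransferase that places H3K36me3 on the bodies of active genes, and m6A is a methylated adenosine placed on mRNA by the METTL3 and METTL14 complex. The series title asks how m6A maps look, base by base, after SETD2 is reduced.

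A listed site is a single base with a score, a whole number of at least 3. The order of the site names fits a binomial probability in which the score is the number of reads over the site and a smaller number of them carry a C-to-T change. Under 1 background rate of change per list, whole numbers of changed reads exist that put all 3755 control, 482 hairpin 1 and 697 hairpin 2 sites in order. Those rates were 1.57%, 1.43% and 1.00%. The order left a single possible number of changed reads at each of the 11 entries of NOTUM and AXIN2. It was the same at both ends of the range of rates that were found to keep the order. For both hairpin lists these ends, 1.4286 and 1.4291% and 1.0036 and 1.0041%, were the limits of the last search step. Rates beyond them were not checked. Because of the order of the names, scores are called reads here. The changed reads are called reconstructed, since no file holds them. The series calls the assay miCLIP, in which C-to-T changes arise beside a crosslinked m6A antibody, but the protocol in the labels describes no crosslinking. The sites are called m6A sites as the lists name them.

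NOTUM had 5 sites with the control shRNA and 2 with each hairpin, and all hairpin sites were bases that the control list also held. Of all listed sites, 225 of 482 (46.7%) with hairpin 1 and 244 of 697 (35.0%) with hairpin 2 were control bases. The number of NOTUM sites was 2.5-fold lower with each hairpin, a smaller difference than that of the whole lists, which were 7.79-fold and 5.39-fold shorter than control. This contrast is not at like depth. Most NOTUM sites were deeper than the control median score of 14, and deeper control sites recurred more often. The best covered NOTUM site, at position 79919015, lay 701 nt from the 5′ border of the interval and had 1807 reads in the control list against 57 and 76 with hairpins 1 and 2. It was the only position of the pair that all 3 lists held, and 15 of the 3755 control sites had a higher score. The site at 79918671, 1045 nt from the 5′ border, had 167 reads in control and was in neither hairpin list. At 79918648, 1068 nt from that border and 23 nt from the previous site, control had 113 reads and hairpin 1 had 4, while hairpin 2 did not list it. These 3 neighbours lay within 367 nt. The site at 79917849, 1867 nt from the 5′ border, had 12 reads in control and was in neither hairpin list. At the other end of the gene, the site at 79910737, 354 nt from the 3′ border, had 371 reads in control and 16 with hairpin 2, and hairpin 1 did not list it. Listed sites of NOTUM in the control list thus lay towards both ends of the interval, with none over the 7112 nt between 79910737 and 79917849, where the reads are not known. The hairpins kept the deepest site in common and differed in the second one, hairpin 1 listing a base near the 5′ border and hairpin 2 the base near the 3′ border.

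**Figure D1:**
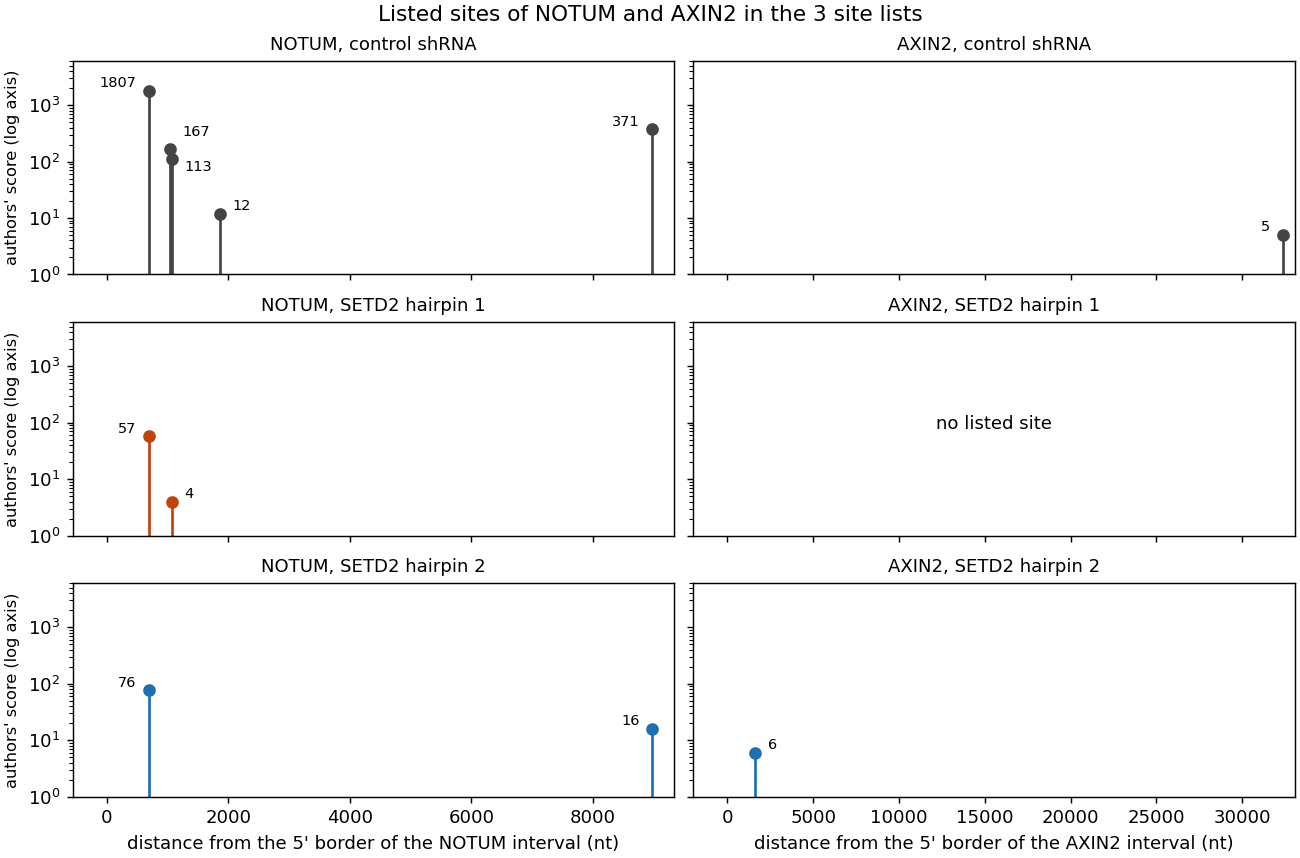
Listed sites of NOTUM (left) and AXIN2 (right) with the control shRNA, hairpin 1 and hairpin 2 (rows), each drawn as a stem at its distance in nt from the 5′ border of the gene's interval, with the authors' score on a log axis. NOTUM goes from 5 sites with scores between 12 and 1807 to 2 sites with each hairpin, the highest at 57 and 76, and AXIN2 has no site at the same position in any pair of lists.

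The interval used for NOTUM is 653 nt longer than the NOTUM gene of RefSeq in GRCh38 (9334 against 8681 nt). Which border differs was not determined, because positions were not converted between builds, and the distance of 701 nt need not be a distance from the transcription start. For AXIN2 the lengths were close, at 33058 and 33086 nt. No other gene of RefSeq overlaps NOTUM or AXIN2 in GRCh38. The protein-coding neighbours are MYADML2 and ASPSCR1 for NOTUM, and RGS9 and CEP112 for AXIN2. Exons, untranslated regions and sequence motifs at the sites were not analysed here.

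AXIN2 had few listed sites, each with a low score. The control list held 1 site, at 63525347, 664 nt from the 3′ border, with 5 reads. Hairpin 1 listed 0 sites. Hairpin 2 listed 1 site, at 63556108, 1632 nt from the 5′ border, with 6 reads. The 2 positions are 30761 nt apart and stand at opposite ends of the interval, so no AXIN2 base could be compared between lists. With 5 and 6 reads, a base that is missing from another list can have been covered there below the minimum score or without a changed read, and a missing base is not a level of 0. AXIN2 is for this reason described by its listed sites alone, and NOTUM carries the comparisons between lists.

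Of the 6 control sites in the pair, 2 were listed again with hairpin 1 and 2 with hairpin 2, which is 33.3% in each case (95% exact Clopper-Pearson interval 4.33 to 77.7). Over all 3755 control sites, 5.99% were listed again with hairpin 1 and 6.50% with hairpin 2. All 4 recurrences were in NOTUM. The sites that recurred had 1807, 371 and 113 reads in control, and recurrence over the whole control list went with coverage, so the shares are better read at similar depth. Among the 20 other control sites with reads within a factor of 2 of those of 79919015, 16 were listed again with hairpin 1 (80.0%, interval 56.3 to 94.3) and 14 with hairpin 2 (70.0%, interval 45.7 to 88.1). The deepest NOTUM site thus recurred as most sites of its depth did. For 79910737, 44 of 158 control sites of similar depth were listed again with hairpin 1, which did not list it, and 45 with hairpin 2, which did. For 79918648, recurrence at similar depth was 92 of 610 with hairpin 1 and 91 of 610 with hairpin 2, and this site was listed again with hairpin 1. For 79918671, at 167 reads, it was 82 of 446 and 72 of 446, and neither hairpin listed this site. The control sites at similar depth to 79917849 and to the AXIN2 site, with 12 and 5 reads, were rarely found again: 21 and 33 of 1421 for NOTUM, and 17 and 21 of 1577 for AXIN2, with hairpins 1 and 2 respectively.

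**Figure D2:**
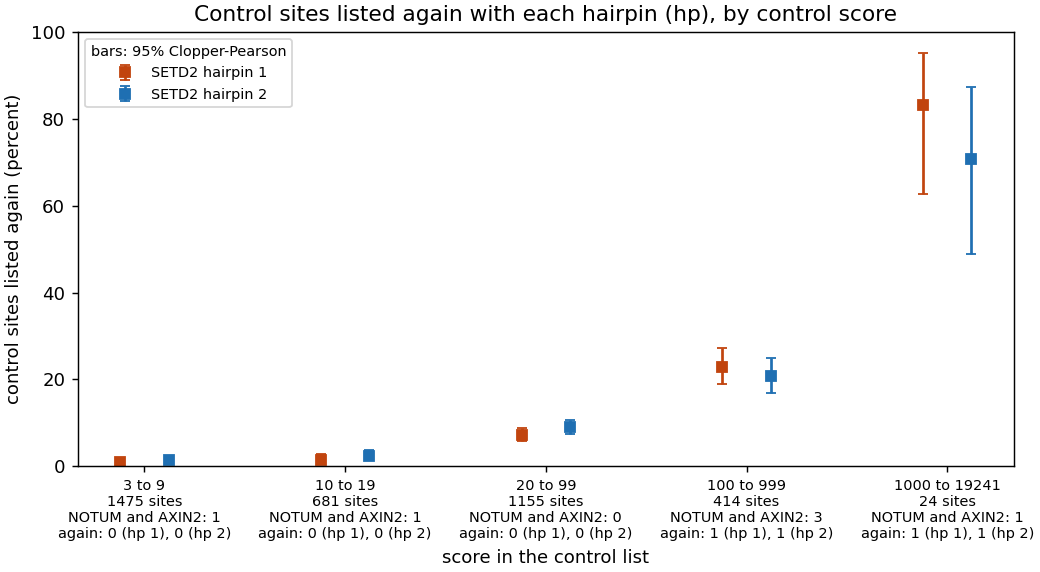
Share of control sites outside NOTUM and AXIN2 that each hairpin listed again (y axis, percent, with 95% Clopper-Pearson bars), by range of the control score (x axis), with the number of NOTUM and AXIN2 sites in each range and how many of them were listed again. The share goes from 1.02% and 1.36% at scores of 3 to 9 to 83.3% and 70.8% at scores of 1000 or more, where the single NOTUM site is among those found.

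Reads at the NOTUM bases that could be compared were lower with both hairpins. At 79919015 coverage was 31.7-fold lower with hairpin 1 (interval 24.4 to 42.0) and 23.8-fold lower with hairpin 2 (interval 18.9 to 30.3). At 79918648 it was 28.3-fold lower with hairpin 1 (interval 10.7 to 105), with 4 reads left. At 79910737 it was 23.2-fold lower with hairpin 2 (interval 14.1 to 41.0). These exact binomial intervals on the reads of 2 lists cover counting error only, and the reads carry no molecular identifiers, so copies of 1 molecule may be among them. Over all shared sites the median was 7.01-fold lower with hairpin 1 (225 sites, quartiles 3.36 and 13.1) and 4.93-fold lower with hairpin 2 (244 sites, quartiles 1.77 and 10.3). All 4 NOTUM values therefore lay beyond the upper quartile of their list, and all were at least 20-fold. A limit of 20-fold, chosen after seeing these values, was passed by 11.6% of the sites shared with hairpin 1 and by 9.84% of those shared with hairpin 2. At the deepest site, 9 of the 225 sites shared with hairpin 1 had a larger fold, and 17 of the 244 shared with hairpin 2. Each hairpin is set against the same control list, so the 2 values at 79919015 share their 1807 control reads.

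At similar control depth, the deepest NOTUM site stood nearer to the other sites, while the 2 shallower ones did not. Among shared sites with control reads within a factor of 2 of those of 79919015, the median was 11.1-fold lower with hairpin 1 (16 sites, 2 with a larger fold than NOTUM) and 12.5-fold lower with hairpin 2 (14 sites, 4 larger). Without mitochondrial sites, these medians were 15.7-fold in both cases, over 11 and 9 sites. For 79918648 with hairpin 1, 4 of 92 shared sites of similar control depth had a larger fold, around a median of 8.47, against 13 of all 225. For 79910737 with hairpin 2, 4 of 45 had a larger fold, around a median of 5.17, against 18 of all 244. A site has to keep at least 3 reads to be listed again, so sites of low or moderate depth that lost most reads are missing from these comparisons. The folds are not scaled for sequencing depth, since library totals were not used. Less RNA from NOTUM, less m6A on it and less of the library reaching this gene cannot be told apart in these lists.

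**Figure D3:**
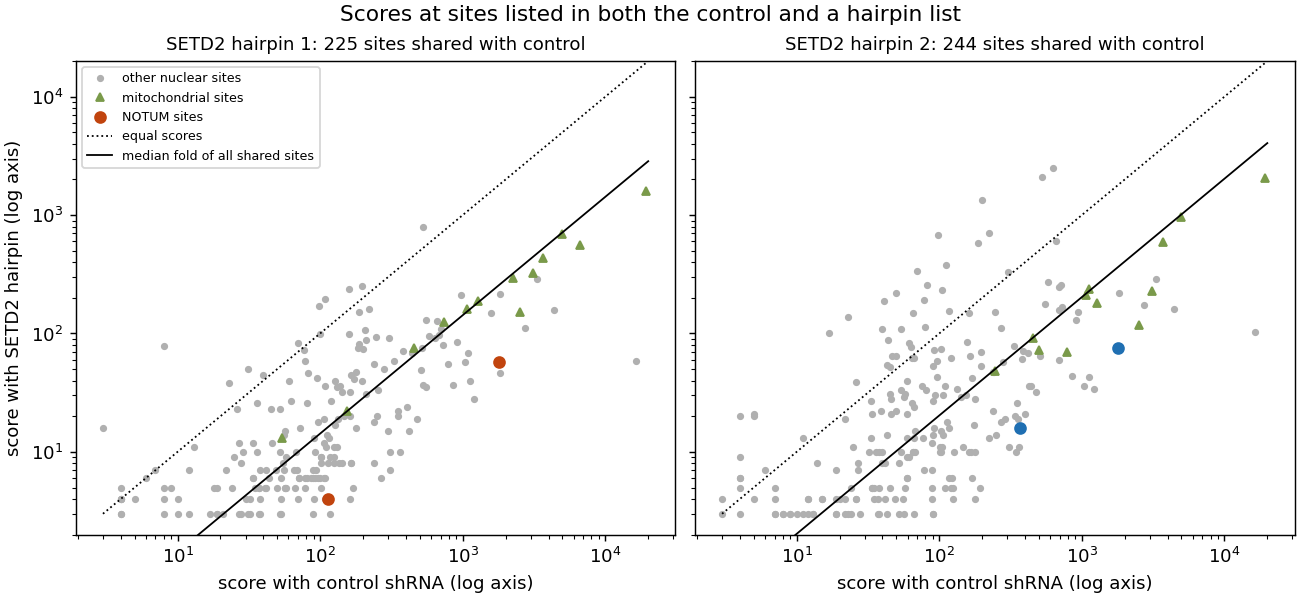
Score with hairpin 1 (left) and hairpin 2 (right) against the score with the control shRNA, on log axes, for every site listed in both, with NOTUM sites as large coloured points and mitochondrial sites as triangles. The NOTUM points lie below the solid line that marks the median fold of all shared sites, 7.01 and 4.93, and the lowest possible value on the y axis is a score of 3.

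A rank within a fixed set of bases is not moved by a uniform difference in depth, and 83 bases were in all 3 lists. Of these, 79919015 ranked 12 by reads in control, 31 with hairpin 1, where 1 other base had the same score, and 34 with hairpin 2. It took 2.12% of the reads over the 83 bases in the control list, against 0.71% and 0.508% with hairpins 1 and 2. The NOTUM base was thus lower in both hairpin lists relative to the other bases that were seen throughout, and no error stands behind these shares. The set leaves out control bases of low or moderate depth that lost most reads, so a deep control base can fall in rank by this selection. How far it did was not tested. Among shared nuclear sites of similar control depth the median fold was 15.7 with each hairpin, beside 31.7 and 23.8 at 79919015.

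The C-to-T share differed widely among the NOTUM sites and was low at the deepest ones. At 79919015 it was 33 of 1807 reads in control, or 1.83% (interval 1.26 to 2.56), and this interval held the fitted rate of the control list, 1.57%. The same was true at 79918671, with 4 of 167 reads (2.40%, interval 0.656 to 6.02), and at 79918648, with 1 of 113 reads (0.885%, interval 0.0224 to 4.83). At the background rate alone these sites would carry 28.4, 2.62 and 1.77 changed reads. The 3 control sites nearest to the 5′ border were thus not separated from the rate of the list. The intervals of the other control sites lay above that rate. At 79910737, near the 3′ border, 14 of 371 reads were changed (3.77%, interval 2.08 to 6.25), and at 79917849 3 of 12 (25%, interval 5.49 to 57.2). The AXIN2 site at 63525347 had 3 changed reads of 5 (60.0%, interval 14.7 to 94.7), the highest share of the pair on the smallest control depth. Low shares at deep coverage were common in the control list, where the median share was 1.83% over the 400 sites with a score from 100 to below 1000 and a single possible number of changed reads. Of the 417 such control sites with a score of 100 or more, 78.4% had an interval that held the rate, and of the 4 NOTUM sites in that range, 3 did.

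With the hairpins, every listed site of the pair rested on a single reconstructed changed read. At 79919015 this was 1 of 57 reads with hairpin 1 (1.75%, interval 0.0444 to 9.39) and 1 of 76 with hairpin 2 (1.32%, interval 0.0333 to 7.11), beside 1.83% in control. The 3 intervals overlapped, and each held the rate of its own list. With 1 changed read each, 1.75% and 1.32% were the lowest shares that could appear at 57 and 76 reads. With no changed read the base would have been absent from the list. The overlap therefore cannot show whether the share at 79919015 fell. The other hairpin entries were 1 of 4 reads at 79918648 with hairpin 1 (25%, interval 0.631 to 80.6), 1 of 16 at 79910737 with hairpin 2 (6.25%, interval 0.158 to 30.2) and 1 of 6 at the AXIN2 base 63556108 with hairpin 2 (16.7%, interval 0.421 to 64.1). A site needs a changed read to be listed, so at 4, 6 or 16 reads the share cannot be near 1%, and these higher values are set by the depth. Sites with a single changed read made up 63.9% of the hairpin 1 list and 60.5% of the hairpin 2 list, against 41.4% in control, over sites with a single possible number. A change in the C-to-T share of NOTUM was not detectable at this depth. The share is not a measure of the fraction of NOTUM transcripts that are modified, which these lists do not give.

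**Figure D4:**
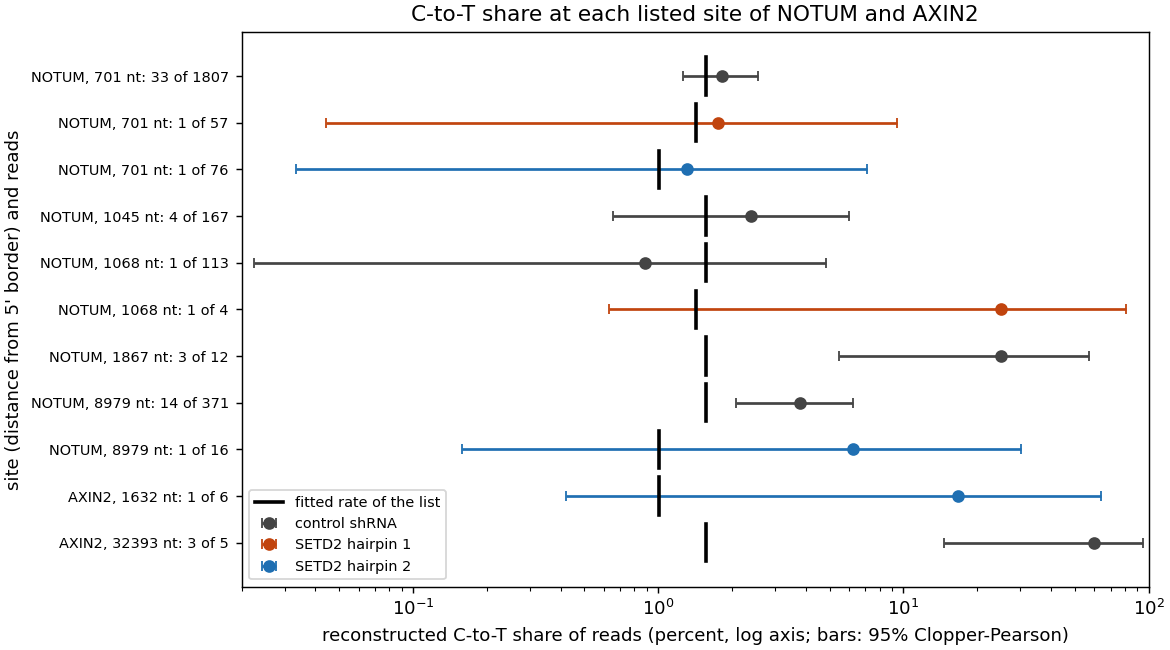
Reconstructed C-to-T share of the reads at each of the 11 listed entries of NOTUM and AXIN2 (percent, log axis), with 95% Clopper-Pearson bars and a black mark at the fitted rate of the list, labelled by distance from the 5′ border and by changed reads of all reads. The mark lies inside the bar at all 5 hairpin entries and at the 3 control sites of NOTUM nearest to the 5′ border, and outside it at the other 3 control sites.

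Most of the control sites of NOTUM and AXIN2 that the hairpins did not list came to less than 1 changed read when divided by a median fold. Across both hairpins, 8 recurrences of the 6 control sites were missing. When control reads and changed reads were divided by the median fold of shared sites, 1 of these 8 came to at least 1 changed read. That was 79910737 with hairpin 1, at 52.9 reads and 2.00 changed reads. Divided by the fold at 79919015 instead, the same site came to 11.7 reads and 0.442 changed reads. At 79918671 the division by the median gave 23.8 reads and 0.571 changed reads for hairpin 1, and 33.9 and 0.811 for hairpin 2. The AXIN2 site came to 0.713 and 1.01 reads, under the minimum score of 3. A value below 1 did not separate unlisted from listed sites: 79918648 was listed with hairpin 1 although it came to 0.143 changed reads by the median, and 79910737 was listed with hairpin 2 at 0.589 by the fold of the deepest site. The same count over all unlisted control sites was not made, so these values are not a trait of the pair. The median fold came from sites that both lists held and is not a library depth. Whether the unlisted bases were modified with the hairpins cannot be told from these lists.

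In the control list NOTUM held one of the larger groups of sites. Neighbouring sites on 1 strand, joined where their gap was at most 1000 nt, formed 3365 groups, 3064 of them single sites. The 4 NOTUM sites from 79917849 to 79919015, over 1166 nt and with 2099 reads summed over sites, were 1 of 20 groups with 4 or more sites, while 79910737 and the AXIN2 site stood alone. Among the 13 other groups of exactly 4 sites, hairpin 1 listed at least 1 base again in 5 and hairpin 2 in 7. The 3 groups nearest to NOTUM in summed reads were on chromosome 7 from 94294669 to 94295439 (plus strand, 1761 reads), chromosome 14 from 38060488 to 38061342 (minus strand, 876 reads) and chromosome 2 from 110372344 to 110373376 (plus strand, 847 reads). Hairpin 1 listed 3, 1 and 2 of their 4 sites again, and hairpin 2 listed 1, 2 and 1. In the NOTUM group these numbers were 2 and 1. The median fold of the recurring bases was 6.35, 4.19 and 4.76 with hairpin 1 and 2.13, 9.09 and 1.60 with hairpin 2, each lower than the NOTUM folds given above. Their deepest sites had 671, 549 and 517 control reads, against 1807 in NOTUM, so the groups were not alike in depth. These groups were compared as values, on 1 to 3 bases each. Of 201 other single control sites with the same 5 reads as the AXIN2 site, 1 was listed again with hairpin 1 and 3 with hairpin 2.

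In control, listed sites of chromosome 17 outside the 2 intervals were at least 49.4 kb away. The usual spacing of listed sites was not computed, so the distances are not a trait of this pair. In control the nearest sites outside the NOTUM interval were 49.4 kb beyond its 3′ border, with 13 reads, and 57.1 kb beyond its 5′ border, with 198 reads. Around AXIN2 they were 514 kb and 1778 kb away, with 18 and 6 reads. The scores inside the intervals therefore do not continue into a neighbouring run of sites. Other Wnt pathway genes, and genes typical of hepatocytes that would check the cell line, were not analysed here, since site positions were not matched to gene names beyond the 2 intervals.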

How the data were processed

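The data are 3 lists of m6A sites, 1 per shRNA, in hg19. Per the submitters' processing notes, FastQC 0.11.5, cutadapt 1.13 and Bowtie 1.1.2 were used. The site names name the tool rbsSeeker with C to T. How replicates were combined, and that tool's version and settings, were not given in the sources used here. Each site has a deposited score, a whole number set by the authors. Positions are 1-based (the end column).

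From the lists, a background rate per list was searched until whole numbers of changed reads kept all sites in the order of their names, which was tested on simulated data. Sites matched when base and strand were equal. Intervals are 95% exact Clopper-Pearson intervals, and for a fold they are taken from the control share of the reads in both lists. Similar depth means a score within a factor of 2. The genes, the limits and the comparisons were chosen with earlier results of these data known. Every listed site in both intervals is named; site groups are named by nearest number of sites and summed score. Alternatives changed the minimum score, matching distance, merging, interval, gap, scaling and rate. No group of samples has replicate values, so no test was run. Python 3.11.15, numpy 2.4.6, scipy 1.17.1, pandas 2.3.3 and matplotlib 3.10.9 were used.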

Additional observations from a re-analysis of the deposited data

How the results depend on the processing

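Of 138 alternative values, 117 stayed within 1.5 times the reported count or within the reported interval, and 21 moved. A change of direction was not scored. A minimum score cannot alter the share or the fold of a site that stays listed. Such values are among the 117 by construction. So are the values at the ends of the range of rates, which were counted only where they did not change. The 117 therefore do not measure robustness. Division by a median fold moved the folds of NOTUM most, and all stayed above 1. Divided by the median over all shared sites, they were 4.52 at 79919015 and 4.03 at 79918648 with hairpin 1, and 4.82 at 79919015 and 4.70 at 79910737 with hairpin 2. Divided by the median over shared mitochondrial sites, they were 4.47, 3.98, 3.65 and 3.56 in the same order. Neither median was taken at similar control depth. Among shared nuclear sites of similar depth to 79919015, the median fold was higher, 15.7 with each hairpin. There, 2 of 11 sites with hairpin 1 and 4 of 9 with hairpin 2 had a larger fold than NOTUM. A minimum score of 5, 10 or 20 left 1 NOTUM site with hairpin 1, and so 1 member found again, because the other had 4 reads. A minimum of 20 left 1 NOTUM site with hairpin 2, likewise 1 found again. A minimum of 10 or 20 left 0 AXIN2 sites in control and 0 with hairpin 2. With gaps of up to 500 nt the NOTUM group had 3 sites and 41 groups were as large. With matching within 50 nt, the control site at 79918671 also matched the hairpin 1 site at 79918648, for 3 found again. The range of rates was chosen as an alternative after seeing the data, and its ends changed no number of changed reads. For both hairpin lists these ends were limits of the search, and rates beyond them were not checked. A single rate for all lists was not run, since the rate of one list did not keep the order of another. Leaving out a replicate could not be done on pooled lists. No paired analysis was possible because each list pools the 3 replicates of its shRNA. Every hairpin entry of the pair rests on 1 changed read, so the precision of its share is low.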
